A study of Mus musculus with 6 samples.

Results

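Transcripts of 10 chemokine genes were measured in WT mouse embryonic fibroblasts (MEFs) that had been depleted of the mitochondrial protease YME1L. The genes were taken by symbol from the table of read counts and comprised Ccl5 and Cxcl10, which are classed here as interferon-driven, Ccl2, Ccl7, Cxcl1, Cxcl2 and Cxcl5, classed as NF-kB-driven, and Cxcl12, Cxcl16 and Cx3cl1, classed as homeostatic or membrane-bound. All 10 were found among the 51499 loci of the table, each at a locus that carried no other gene name. The classes are textbook assignments and were not derived from these libraries.

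RNA-Seq of polyadenylated RNA was performed on 6 libraries, 3 independent cultures transfected with a scrambled control siRNA (Scr siRNA) and 3 transfected with an siRNA against Yme1l (Yme1l siRNA), and all were harvested at 72 h. Both groups shared the WT genotype and the transfection, so the siRNA was the only labelled difference. The comparison asks how acute loss of YME1L changes the transcriptome of otherwise normal cells. The methods of the study describe its immortalized WT MEFs as a clone that carries unrecombined loxP-flanked Yme1l alleles, expanded after Cre transduction. Whether this clone was used here is not stated in the sample titles, which say WT MEF. The labels describe the cells as 3T3 immortalized whereas the methods of the study name SV40 large T antigen. All results therefore refer to immortalized rather than primary fibroblasts.

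Chemokines are small secreted or membrane-anchored proteins that direct the migration of leukocytes through G-protein-coupled receptors, and their subfamilies are named after the spacing of the first conserved cysteines. Fibroblasts are a major stromal source of them. Transcription factors activated by interferon signalling act on interferon-stimulated response elements (ISREs) of genes such as Cxcl10 and Ccl5, NF-kB acts on kB sites of genes such as Ccl2 and Cxcl1, and Cxcl12 is expressed constitutively by many stromal cells.

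The stretch of coding sequence around those cysteines is shown for every gene because it is what places each one in its subfamily. Sequences are from the GENCODE M21 transcripts on GRCm38, each lies within 1 exon, is written 5′ to 3′ in the direction of the gene, and has the cysteine codons in capitals. The codons for Glu-Leu-Arg (ELR), which in CXC chemokines mark ligands of the neutrophil receptor Cxcr2, are also in capitals where they directly precede the first cysteine. The CC chemokines have adjacent cysteine codons:
Ccl5 (chr11:83529233-83529256, minus strand): accactcccTGCTGCtttgcctac
Ccl2 (chr11:82036497-82036520, plus strand): ccactcaccTGCTGCtactcattc
Ccl7 (chr11:82046529-82046552, plus strand): gcatccacaTGCTGCtatgtcaag
In the CXC chemokines 1 codon separates them, and Cxcl1, Cxcl2 and Cxcl5 carry the ELR codons:
Cxcl10 (chr5:92348172-92348198, minus strand): acggtccgcTGCaacTGCatccatatc
Cxcl1 (chr5:90891487-90891513, plus strand): GAGCTGCGCTGTcagTGCctgcagacc
Cxcl2 (chr5:90904133-90904159, plus strand): GAACTGCGCTGTcaaTGCctgaagacc
Cxcl5 (chr5:90759718-90759744, plus strand): GAGCTGCGTTGTgttTGCttaaccgta
Cxcl12 (chr6:117171499-117171525, plus strand): agctaccgaTGCcccTGCcggttcttc
Cxcl16 (chr11:70459118-70459144, minus strand): gctggaagtTGTtctTGTgatcgtacc
In Cx3cl1, 3 codons separate them:
Cx3cl1 (chr8:94778042-94778074, plus strand): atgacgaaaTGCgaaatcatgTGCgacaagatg

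Library totals ranged from 37260605 to 45205207 counts. Levels are given as CPM (counts scaled to a library size of 1e+06) after TMM scaling, and 3 counts in a library corresponded to between 0.0676 and 0.0831 CPM. Yme1l1, the targeted gene, stood at 170, 171 and 171 CPM after Scr siRNA and at 31.6, 23.4 and 45.0 CPM after Yme1l siRNA, so every knockdown culture lay below every control culture and replicate 3 kept the most transcript (log2 fold change −2.36, SE 0.20, adjusted p = 3.87e-05). Adjusted p-values are from edgeR's quasi-likelihood test with Benjamini-Hochberg adjustment over the 14499 loci that passed the filter on low counts, unless another test is named, and a gene is called higher or lower at an adjusted p under 0.05. The median log2 fold change of all these loci was 0.0086.

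Markers of the cell types that the cultures could hold were read in the same libraries. Of 7 fibroblast markers, Thy1 had at most 1 count in any library and 6 were tested. Collagen transcripts Col1a1, Col1a2 and Col3a1 and the receptors Pdgfra and Pdgfrb were all called lower, with log2 fold changes between −1.51 and −0.58, and Vim was not called. Their summed level ranged from 24557 to 31576 CPM in the Scr siRNA libraries and from 14191 to 17150 CPM in the Yme1l siRNA libraries. Of 7 macrophage markers, Adgre1 was at 0 in all 6 libraries and Ptprc and Itgam had at most 3 counts, while 4 were tested, 1 called higher and 3 not called (Cd68 −0.13, Lyz2 −0.34 and Cd14 0.080 on the log2 scale). The called gene, Csf1r, was higher by 0.74 and accounted for most of the list's difference between 193 to 208 summed CPM after Scr siRNA and 273 to 286 after Yme1l siRNA. The 5 endothelial markers summed to between 3.79 and 4.08 CPM after Scr siRNA and to between 5.68 and 7.85 CPM after Yme1l siRNA, with Kdr and Tek called higher and Pecam1 (0.47) not called. The 4 epithelial markers summed to between 0.0924 and 0.166 and then to between 0.807 and 1.33 CPM, with Krt8, the only one tested, called higher. The T cell markers stayed at or below 0.0462 CPM in sum. The part of these shifts in the chemokine values was not tested.

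After Yme1l siRNA, 6 of the 10 chemokines were higher, 1 was lower, 2 passed the filter without being called and 1 had too few counts to test, beside 28.4% of all tested loci called higher and 29.6% called lower. The genes called higher were Cxcl10, Cxcl16, Ccl5, Ccl2, Cxcl1 and Ccl7, in descending order of fold change, and the gene called lower was Cxcl12. In 7 of the 9 tested genes the groups did not overlap, against 65.4% of all tested loci. The median log2 fold change of the 9 was 0.62.

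**Figure D1:**
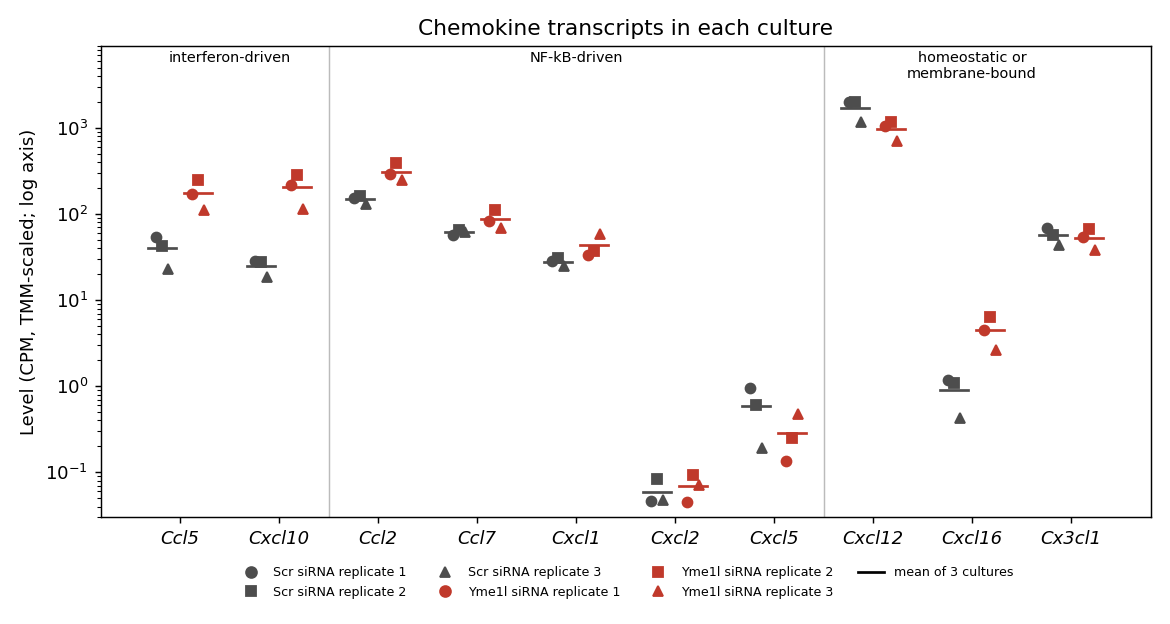
Level of each chemokine transcript in each of the 6 cultures, in TMM-scaled CPM on a log axis. Grey symbols are Scr siRNA and red symbols Yme1l siRNA libraries, the symbol shape gives the replicate and the bar the mean of 3 cultures. The red symbols of Ccl5, Cxcl10, Ccl2, Cxcl16 and, more narrowly, Ccl7 and Cxcl1 lie above all grey ones. Those of Cxcl12 lie below, and those of Cx3cl1 and Cxcl5 are interleaved with them.

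Cxcl10 and Ccl5, the interferon-driven pair, were both induced. Cxcl10 (XLOC_033938; chr5:92346638-92348889, minus strand), a ligand of Cxcr3 on activated T cells and natural killer cells, was at 28.4, 28.1 and 18.4 CPM after Scr siRNA and at 216, 284 and 116 CPM after Yme1l siRNA. The lowest knockdown culture was thus well above the highest control culture. The means were 25.0 ± 5.66 and 205 ± 84.8 CPM (SD, n = 3 each), an 8.23-fold difference (log2 fold change 3.04, 95% interval 2.31 to 3.77, adjusted p = 9.46e-05). Art3 on the opposite strand shares 133 bases with the Cxcl10 transcript and had at most 4 counts in any library.

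Ccl5 (XLOC_008167; chr11:83525778-83530518, minus strand), which recruits T cells and monocytes, was at 54.9, 42.5 and 23.0 CPM after Scr siRNA and at 170, 250 and 111 CPM after Yme1l siRNA. Again no knockdown culture fell within the range of the controls. The means of 40.1 ± 16.1 and 177 ± 69.4 CPM (SD, n = 3 each) differed 4.41-fold (log2 fold change 2.14, 95% interval 1.34 to 2.95, adjusted p = 0.00101). Both genes were called in all 14 alternative analyses, those that left out a library included.

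The ratio of Cxcl10 to Ccl5 was higher in every knockdown library than in any control library. The log2 ratio of Cxcl10 to Ccl5 counts was −0.95, −0.60 and −0.32 in the Scr siRNA libraries, where Ccl5 had more counts, and 0.34, 0.19 and 0.056 in the Yme1l siRNA libraries, where Cxcl10 had more. The groups did not overlap and the ratio was 1.76-fold higher (difference of the means 0.82 on the log2 scale). A two-sided exact permutation test gave p = 0.1, the smallest value that 3 against 3 libraries allow.

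Ifnb1, which encodes interferon-β, was near the detection limit in the same cultures, with 3, 1 and 0 counts after Scr siRNA and 37, 60 and 11 counts after Yme1l siRNA. The pooled ratio was 25.3 (95% exact interval 9.58 to 94.4, which covers counting error only). In the knockdown group Ifnb1, Cxcl10 and Ccl5 shared 1 order of the cultures, with replicate 2 highest and replicate 3 lowest. Ccl2, Ccl7, Cxcl12, Cxcl16 and Cx3cl1 had that order as well, so it is not particular to the interferon-driven pair.

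The NF-kB-driven group was mixed. Of its 5 genes, 3 were called higher, with smaller log2 fold changes than those of Cxcl10 and Ccl5, 1 was tested and not called, and 1 was at the limit of detection. The called genes were the monocyte attractants Ccl2 and Ccl7, which lie next to each other on chromosome 11, and the neutrophil attractant Cxcl1.

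Ccl2 (XLOC_006704; chr11:82035571-82037453, plus strand), the main ligand of Ccr2 on monocytes, was at 153, 161 and 130 CPM after Scr siRNA and at 292, 395 and 248 CPM after Yme1l siRNA. The ranges were separate. The means of 148 ± 15.9 and 312 ± 75.4 CPM (SD, n = 3 each) differed 2.10-fold (log2 fold change 1.07, 95% interval 0.70 to 1.45, adjusted p = 0.000658), and the call held in all 14 alternatives.

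Ccl7 (XLOC_006705; chr11:82045712-82047525, plus strand), a second attractant of monocytes, was at 56.7, 65.7 and 62.7 CPM after Scr siRNA and at 83.2, 112 and 69.2 CPM after Yme1l siRNA. Knockdown replicate 3 was only just above the highest control. The difference was 1.43-fold (means 61.7 ± 4.60 and 88.2 ± 22.0 CPM, SD, n = 3 each, log2 fold change 0.52, 95% interval 0.15 to 0.88, edgeR adjusted p = 0.0219). The call was lost without Scr siRNA replicate 1 (log2 fold change 0.45, edgeR adjusted p = 0.0770) and without Scr siRNA replicate 3 (0.52, edgeR adjusted p = 0.0527).

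Cxcl1 (XLOC_032309; chr5:90891241-90893115, plus strand) was at 28.4, 30.7 and 25.2 CPM after Scr siRNA and at 33.2, 37.3 and 59.2 CPM after Yme1l siRNA. Here knockdown replicate 3, which was the lowest for Ccl5, Cxcl10, Ccl2 and Ccl7, was the highest. The difference was 1.54-fold (means 28.1 ± 2.76 and 43.2 ± 14.0 CPM, SD, n = 3 each, log2 fold change 0.62, 95% interval 0.17 to 1.07, edgeR adjusted p = 0.0253), and it was no longer called without Scr siRNA replicate 1 (0.62, edgeR adjusted p = 0.0613) or Scr siRNA replicate 3 (0.54, edgeR adjusted p = 0.0858).

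The other ELR chemokines were close to silent. Cxcl5 (XLOC_032302; chr5:90759360-90761624, plus strand), a further ligand of the neutrophil receptor, had 41, 22 and 8 counts after Scr siRNA and 6, 11 and 20 counts after Yme1l siRNA. The ranges overlapped and the control cultures differed 4.99-fold among themselves. Its log2 fold change of −1.02 (95% interval −2.41 to 0.37, edgeR adjusted p = 0.182) was not called, but without Scr siRNA replicate 3 it was −1.45 and was called (edgeR adjusted p = 0.0437).

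Cxcl2 (XLOC_032311; chr5:90903871-90905938, plus strand), another neutrophil attractant and the closest relative of Cxcl1 in sequence among the 10 genes, had 2, 3 and 2 counts after Scr siRNA and 2, 4 and 3 counts after Yme1l siRNA. It failed the filter on low counts. The pooled ratio was 1.20 (95% exact interval 0.399 to 3.80), so a difference within that interval was not detectable at this depth. A stretch of 128 bases of the Cxcl1 transcript was 80.5% identical to Cxcl2, and 116 bases of Cxcl2 were 98.3% identical to Cxcl3, so the few Cxcl2 counts may be shared with Cxcl3, which had at most 3 counts per library.

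The 3 homeostatic or membrane-bound chemokines went in different directions. Cxcl12 was lower, Cxcl16 was higher and Cx3cl1 was not called. Cxcl12 (XLOC_035833; chr6:117168535-117181367, plus strand), the Cxcr4 ligand that retains haematopoietic cells in the bone marrow, was the most abundant of the 10 by counts, with 1998, 2009 and 1175 CPM after Scr siRNA and 1046, 1166 and 702 CPM after Yme1l siRNA. The highest knockdown culture came within a few CPM of the lowest control culture, Scr siRNA replicate 3. The means of 1728 ± 478 and 971 ± 241 CPM (SD, n = 3 each) differed 1.78-fold (log2 fold change −0.83, 95% interval −1.37 to −0.29, edgeR adjusted p = 0.0158).

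The Cxcl12 call was lost without Scr siRNA replicate 1 (log2 fold change −0.72, edgeR adjusted p = 0.0519) and without Scr siRNA replicate 2 (−0.71, edgeR adjusted p = 0.0588). Its decrease was within the span of the 5 fibroblast markers that were called lower, −1.51 to −0.58. In these bulk libraries fewer cells that express Cxcl12 and less Cxcl12 RNA per cell cannot be told apart.

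Cxcl16 (XLOC_007944; chr11:70453983-70459984, minus strand), a membrane-anchored ligand of Cxcr6 that is also a scavenger receptor for oxidized lipoprotein, was expressed weakly, at 1.18, 1.08 and 0.427 CPM after Scr siRNA and 4.49, 6.33 and 2.63 CPM after Yme1l siRNA. Every knockdown culture exceeded every control culture. The means of 0.895 ± 0.409 and 4.48 ± 1.85 CPM (SD, n = 3 each) differed 5.01-fold (log2 fold change 2.33, 95% interval 1.37 to 3.28, adjusted p = 0.00160), and the call held in all 14 alternatives. Zmynd15 on the opposite strand shares 552 bases with the Cxcl16 transcript. It had 5, 0 and 2 counts against 51, 39 and 18 for Cxcl16 in the Scr siRNA libraries, and 11, 19 and 9 against 199, 275 and 111 in the Yme1l siRNA libraries. The strand setting of the count table is not given in the sources used here, so reads of the shared stretch cannot be told apart.

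Cx3cl1 (XLOC_043191; chr8:94772009-94782427, plus strand), the membrane-anchored ligand of Cx3cr1 on monocytes and microglia, was at 69.1, 57.8 and 43.3 CPM after Scr siRNA and 54.6, 66.6 and 37.8 CPM after Yme1l siRNA. The 2 ranges lay largely on top of each other. Its log2 fold change was −0.10 (95% interval −0.59 to 0.40, edgeR adjusted p = 0.718), an interval that leaves room for a change of up to 0.59 in the downward direction, and its sign turned without Scr siRNA replicate 1 (0.063) or Yme1l siRNA replicate 3 (0.092).

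**Figure D2:**
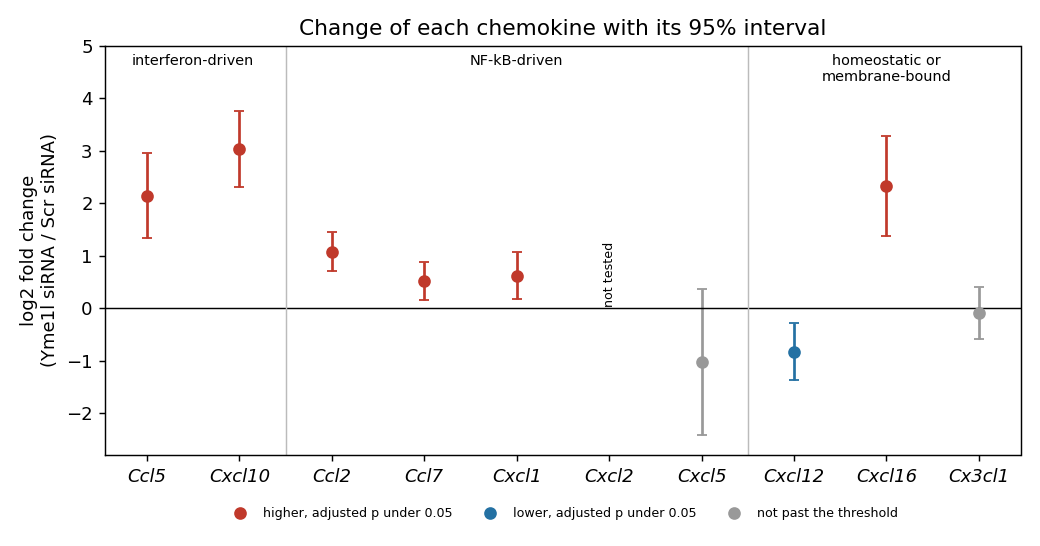
log2 fold change of each chemokine (Yme1l siRNA over Scr siRNA, 3 cultures each) with its 95% interval from edgeR's quasi-likelihood fit, in the order of the classes. Red points are called higher, the blue point lower and grey points are not past an adjusted p of 0.05; Cxcl2 was not tested. Cxcl10 (3.04), Cxcl16 (2.33) and Ccl5 (2.14) are the highest points and Cxcl12 (−0.83) is the only one called lower.

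To contrast the interferon-driven pair with the other 8 chemokines independently of library scaling, the log2 ratio of Ccl5 or Cxcl10 counts to those of each other gene was taken within each library. Of the 16 ratios, 15 were higher after Yme1l siRNA and 14 did not overlap between the groups. All have Ccl5 or Cxcl10 as numerator and share their denominators, so the 16 are not independent results. Each shift is also close to the difference between the log2 fold changes of its 2 genes, most of them given above. The genes were chosen with earlier results of these data known. The ratios therefore restate those changes within libraries and are no separate support for the contrast. Among single loci, 65.4% of those tested did not overlap between the groups, a share that is not a background for ratios between chosen genes. Each of the 14 reached p = 0.1 in the two-sided exact permutation test, the smallest value possible with 3 libraries per group, and 0.114 after Benjamini-Hochberg adjustment over the 16. Thus no ratio could pass a threshold of 0.05 in this design, and the sizes are given as measured. The ratios to Cxcl2 rest on 2 to 4 counts and are not described further.

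Against Cxcl12 the shift was large for both genes. The log2 ratio of Cxcl10 to Cxcl12 was −6.14, −6.16 and −5.99 after Scr siRNA and −2.28, −2.04 and −2.60 after Yme1l siRNA. All control libraries lay close together and far below the knockdown libraries, and the mean difference of 3.79 (SE 0.17) corresponds to a 13.9-fold higher ratio. For Ccl5 over Cxcl12 the difference was 2.98 (SE 0.20).

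The ratios to Cxcl5, which had 6 to 41 counts per library, were higher by 3.86 (SE 0.94) for Cxcl10 and by 3.05 (SE 0.79) for Ccl5, both without overlap and with wider errors. Against the monocyte attractants Ccl2 and Ccl7 the shift was smaller. The log2 ratio of Cxcl10 was higher by 1.92 (SE 0.24) over Ccl2 and by 2.48 (SE 0.31) over Ccl7, and that of Ccl5 by 1.10 (SE 0.33) and 1.67 (SE 0.43). The ratio of Cxcl10 to Cxcl1 was higher by 2.39 (SE 0.63) without overlap, while the ratio of Ccl5 to Cxcl1 overlapped (difference 1.58, SE 0.64, exact permutation p = 0.2) because its value in Yme1l siRNA replicate 3 (0.91) was below that in Scr siRNA replicate 1 (0.95). Over Cx3cl1 the differences were 3.08 (SE 0.16) for Cxcl10 and 2.27 (SE 0.21) for Ccl5.

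Cxcl16 was the only gene over which a ratio was not higher after knockdown. It was not the only break in the contrast between the classes, since Ccl5 over Cxcl1 overlapped as well. The log2 ratio of Ccl5 to Cxcl16 was 5.53, 5.28 and 5.71 after Scr siRNA and 5.24, 5.30 and 5.40 after Yme1l siRNA. These ranges overlapped, with a difference of −0.19 (SE 0.13, exact permutation p = 0.3, adjusted 0.3), although both genes changed more than 4-fold. The ratio of Cxcl10 to Cxcl16 was higher by 0.62 (SE 0.26), with a gap of 0.058 between the nearest libraries of the groups.

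**Figure D3:**
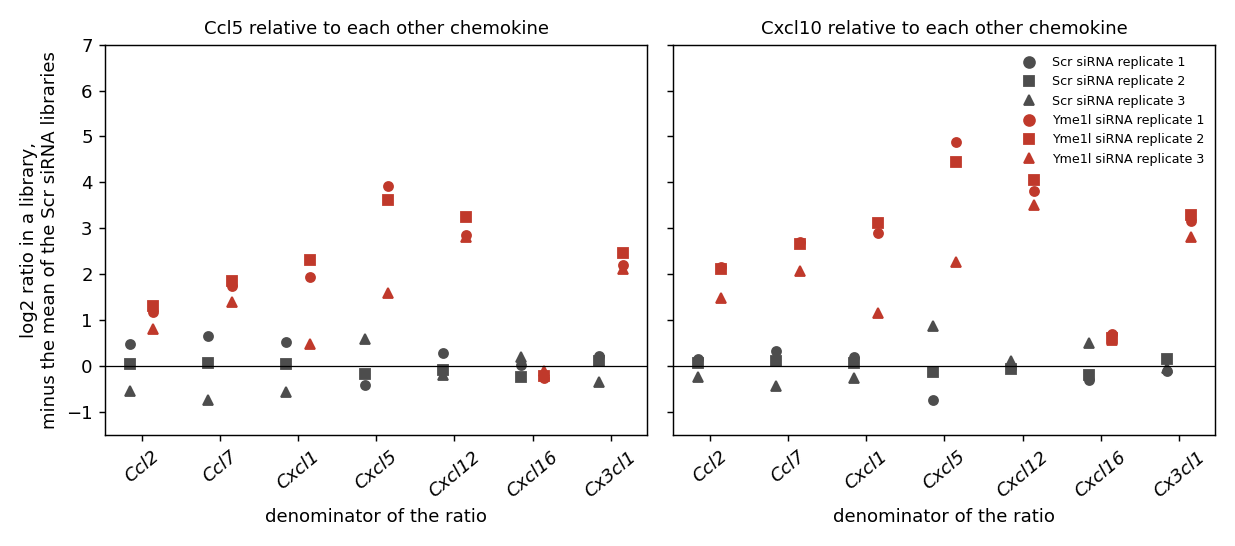
log2 ratio of Ccl5 (left) and Cxcl10 (right) counts to those of 7 other chemokines in each library, after subtracting the mean of the 3 Scr siRNA libraries. Grey symbols are Scr siRNA and red symbols Yme1l siRNA libraries, with the replicate given by the shape. Red symbols are above grey ones for most denominators, whereas for Ccl5 over Cxcl16 they lie at a difference of −0.19.

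Levels were compared between genes per kilobase of exon (RPKM, over the exon union of the annotation). In the Scr siRNA libraries the order was Cxcl12 (211 ± 58.5 RPKM), Ccl2 (130 ± 13.9), Ccl7 (77.0 ± 5.74), Ccl5 (41.8 ± 16.7), Cxcl1 (14.99 ± 1.47), Cx3cl1 (14.4 ± 3.29), Cxcl10 (11.1 ± 2.51), Cxcl5 (0.312 ± 0.204), Cxcl16 (0.296 ± 0.135) and Cxcl2 (0.0285 ± 0.0101; SD, n = 3 each). The ranges of Cxcl1, Cx3cl1 and Cxcl10 overlapped between neighbours, as did those of Cxcl5 and Cxcl16, whereas each of the first 4 genes did not overlap with the next in order. With the protein-coding transcript as the length, Ccl7 (70.8 to 82.0 RPKM) and Ccl5 (43.3 to 103 RPKM) overlapped.

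After Yme1l siRNA the order began with Ccl2 (274 ± 66.3 RPKM), Ccl5 (184 ± 72.3), Cxcl12 (119 ± 29.4), Ccl7 (110 ± 27.5) and Cxcl10 (91.2 ± 37.6), and in range each of these overlapped with its neighbours among the 5. Cxcl1 (23.1 ± 7.45), Cx3cl1 (13.5 ± 3.68), Cxcl16 (1.48 ± 0.611), Cxcl5 (0.154 ± 0.0925) and Cxcl2 (0.0336 ± 0.0114) followed without overlap. Cxcl12 thus stood at rank 1 in the control group and at rank 3 after knockdown, and Cxcl10 at rank 7 and rank 5. The exon union of Cxcl10 spans 2252 bases and its protein-coding transcript 1094, and with coding transcripts as the length Cxcl10 stood at rank 6 and rank 4.

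Summed over the 10 genes the level was 553, 557 and 393 RPKM after Scr siRNA and 795, 1055 and 600 RPKM after Yme1l siRNA, which left the groups separate. With coding transcripts as the length the sums were 1078, 1077 and 714 RPKM and then 1367, 1790 and 1006 RPKM, and the groups overlapped. With the exon union as the length, Cxcl12 supplied 41.6% ± 4.38 of the sum in the controls and 14.6% ± 1.32 after knockdown (SD, n = 3 each). The share of Ccl5 was 8.12% ± 2.12 and 22.1% ± 2.65, and that of Cxcl10 2.198% ± 0.103 and 10.9% ± 1.98. The share of Ccl2 was 26.3% ± 2.50 and 33.8% ± 2.16, while the shares of Ccl7 (15.8% ± 3.68 and 13.6% ± 0.708) overlapped. These shares depend on the length: with coding transcripts they were 57.1% and 22.5% for Cxcl12, 7.68% and 23.5% for Ccl5, 2.38% and 13.2% for Cxcl10, 19.4% and 27.9% for Ccl2 and 8.38% and 8.01% for Ccl7.

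**Figure D4:**
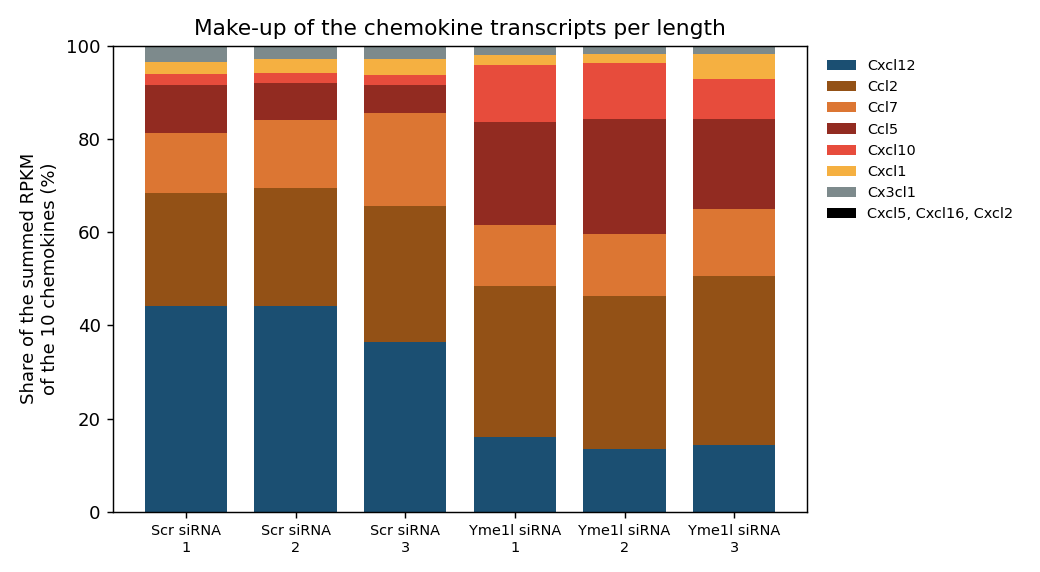
Share of each chemokine in the summed RPKM of the 10 genes, in percent, for each of the 6 libraries. The Cxcl12 block spans 36.5% to 44.2% in the Scr siRNA libraries and 13.5% to 16.1% after Yme1l siRNA, where the Ccl5 and Cxcl10 blocks are wider; Cxcl5, Cxcl16 and Cxcl2 together are too small to be seen.

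The cultures of a group did not vary alike for all genes. Among the Yme1l siRNA libraries, replicate 2 was highest and replicate 3 lowest for Ccl5, Cxcl10, Ccl2, Ccl7, Cxcl12, Cxcl16 and Cx3cl1, that is for genes called higher, called lower and not called. The Yme1l1 transcript left in these cultures followed the opposite order, with 23.4 CPM in replicate 2 and 45.0 CPM in replicate 3. Only the ELR genes Cxcl1 and Cxcl5 had their highest level in replicate 3 and their lowest in replicate 1.

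Among the Scr siRNA libraries, replicate 3 was lowest for 8 of the 10 genes, the exceptions being Ccl7 and Cxcl2. The highest over the lowest control culture was 2.38 for Ccl5, 2.76 for Cxcl16 and 1.54 for Cxcl10, but 1.23 for Ccl2 and 1.16 for Ccl7. These orders are those of 3 cultures per group and were not tested.

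Promoters are shown for 3 genes whose transcripts behaved differently, the induced Cxcl10, the modestly higher Cxcl1 and the lower Cxcl12. They are the 250 bases before the transcript start in the RefSeq table for GRCm38.p6, which matched 5 of the 10 genes, Cxcl10, Cxcl1, Cxcl2, Cxcl12 and Cx3cl1. Both strands were searched for the ISRE core GAAANNGAAA and for the NF-kB consensus known as the kB site, and matches are in capitals:
Cxcl10 (chr5:92348890-92349139, minus strand): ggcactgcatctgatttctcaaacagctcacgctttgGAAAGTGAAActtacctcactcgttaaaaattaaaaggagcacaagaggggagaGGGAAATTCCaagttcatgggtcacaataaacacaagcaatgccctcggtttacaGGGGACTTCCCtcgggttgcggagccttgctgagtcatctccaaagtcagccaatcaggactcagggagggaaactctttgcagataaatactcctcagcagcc
Cxcl1 (chr5:90890995-90891244, plus strand): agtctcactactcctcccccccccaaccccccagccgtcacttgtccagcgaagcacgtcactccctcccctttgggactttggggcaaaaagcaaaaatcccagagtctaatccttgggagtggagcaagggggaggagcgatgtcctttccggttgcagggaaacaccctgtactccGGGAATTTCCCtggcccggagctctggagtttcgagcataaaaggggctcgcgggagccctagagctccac
Cxcl12 (chr6:117168285-117168534, plus strand): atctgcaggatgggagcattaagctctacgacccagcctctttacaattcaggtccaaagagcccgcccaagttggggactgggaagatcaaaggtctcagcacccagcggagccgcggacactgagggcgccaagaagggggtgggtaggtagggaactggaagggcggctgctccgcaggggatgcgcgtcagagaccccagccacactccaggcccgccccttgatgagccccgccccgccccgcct
The Cxcl10 window held 1 ISRE core, GAAAGTGAAA, which begins 213 bases before the start, and kB matches at 159 bases (GGGAAATTCC) and at 104 and 103 bases (GGGGACTTCC and GGGACTTCCC, which overlap). The Cxcl1 window held a kB match 71 bases before the start, GGGAATTTCC, overlapped by its match on the opposite strand, and no ISRE core. The same kB letters lay 97 bases before the start of Cxcl2, the gene with at most 4 counts per library. Neither motif was found in the Cxcl12 and Cx3cl1 windows. Of all 32851 promoter windows of this length, 2.98% held the ISRE core, 7.25% a kB match and 0.164% both. A match describes the letters in the window and does not show that a factor binds there.

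The rest of the ligand family was mostly silent. Of the 28 other chemokine ligands, 7 were at 0 in every library and 7 passed the filter, of which 3 were called higher (28.4% of all tested loci) and 1 lower (29.6%), with a median log2 fold change of 0.50. Ccl4, an inflammatory attractant of T cells and monocytes, had 1, 3 and 1 counts after Scr siRNA and 76, 130 and 47 counts after Yme1l siRNA, a pooled ratio of 47.3 (95% exact interval 20.02 to 147, counting error only). Cxcl11, a further ligand of Cxcr3 and the neighbour of Cxcl10 in the table, had 9, 5 and 3 counts and then 61, 125 and 30 (log2 fold change 3.54, SE 0.61, edgeR adjusted p = 0.00132). For both genes the knockdown libraries had the order of Cxcl10 and Ccl5, replicate 2 first and replicate 3 last. That order was also seen for Cxcl12, which was called lower, and for Cx3cl1, which was not called.

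Ccl25, a thymic and intestinal attractant that overlaps Elavl1 on the opposite strand, was also higher (0.88, edgeR adjusted p = 0.00497), and Ccl28, a mucosal attractant, was the ligand called lower (−1.63, edgeR adjusted p = 0.00472). Ccl9, Ccl27a and Ppbp were not called. Among ligands that failed the filter, Ccl20 had 0 counts in every Scr siRNA library and 5, 13 and 6 counts after Yme1l siRNA, at least 7.48-fold higher against a floor of 3 counts over the control group. Cxcl9, the third Cxcr3 ligand, had 0, 0 and 1 and then 4, 4 and 2 counts. Others went the opposite way at similar counts. Ccl12 had 3, 2 and 3 and then 0, 1 and 0 counts, and Cxcl15 had 7, 3 and 2 and then 0, 1 and 2.

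Receptors for these ligands were hardly expressed. Of 23 chemokine receptors and scavengers only Ackr3 passed the filter, and Ccr2 and Cx3cr1 were at 0 in all 6 libraries while Cxcr3 had at most 1 and Cxcr4 at most 4 counts. Ackr3, a decoy receptor that removes Cxcl12 and Cxcl11, had 2137, 1463 and 1788 counts after Scr siRNA and 4936, 4780 and 3554 after Yme1l siRNA (log2 fold change 1.21, SE 0.12, edgeR adjusted p = 8.22e-05). Of its ligands, Cxcl12 was called lower and Cxcl11 higher.

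Of 6 enzymes that shed or trim chemokines, 5 were tested, none was called higher and 3 were lower, beside 28.4% and 29.6% of all tested loci. Adam17, the inducible sheddase of Cx3cl1, fell by 1.21 on the log2 scale (SE 0.099, edgeR adjusted p = 3.15e-05), and the metalloproteases Mmp2 and Mmp14, of which Mmp2 cleaves Cxcl12 and Ccl7, fell by 0.89 and 0.85. Adam10, which sheds Cxcl16 and Cx3cl1 constitutively, had a log2 fold change of 0.054 (SE 0.080) and was not called. The list's median was −0.85.

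Of 8 regulators of chemokine mRNA decay, all tested, Rc3h1 (0.74) and Zfp36l2 (0.54), both of which promote decay, were higher, Zc3h12a (−0.45), a nuclease that cleaves inflammatory mRNAs, was lower and 5 were not called, with a median of 0.12. Among all tested loci 28.4% were called higher and 29.6% lower, so these counts do not stand above the background.

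Of 15 NF-kB subunits and feedback genes, 7 were called higher and 1 lower, with a median of 0.28, where 28.4% and 29.6% of all tested loci were. Tnfaip3, an inhibitor that NF-kB itself induces, rose most (1.79, SE 0.20, edgeR adjusted p = 0.000145), followed by the inhibitor Nfkbia (0.68, SE 0.070, edgeR adjusted p = 8.49e-05), and the kinase Chuk was higher by 0.57. The subunit Rela had a log2 fold change of 0.13 and was not called, and Tnip1 (−0.25, edgeR adjusted p = 0.0468) was the gene called lower.

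Of 10 interferon transcription factors, 9 were matched, and 6 of these were higher and 1 was lower (28.4% and 29.6% of all tested loci), with a median of 0.54. Irf7, the interferon-inducible activator of interferon genes, rose by 2.98 (SE 0.50, edgeR adjusted p = 0.00114), within the range of the changes of Ccl5 and Cxcl10. Irf3, the factor through which cytosolic DNA sensing acts, was not called (−0.20, edgeR adjusted p = 0.0635). Stat3 fell by 1.42 (edgeR adjusted p = 5.59e-06).

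**Figure D5:**
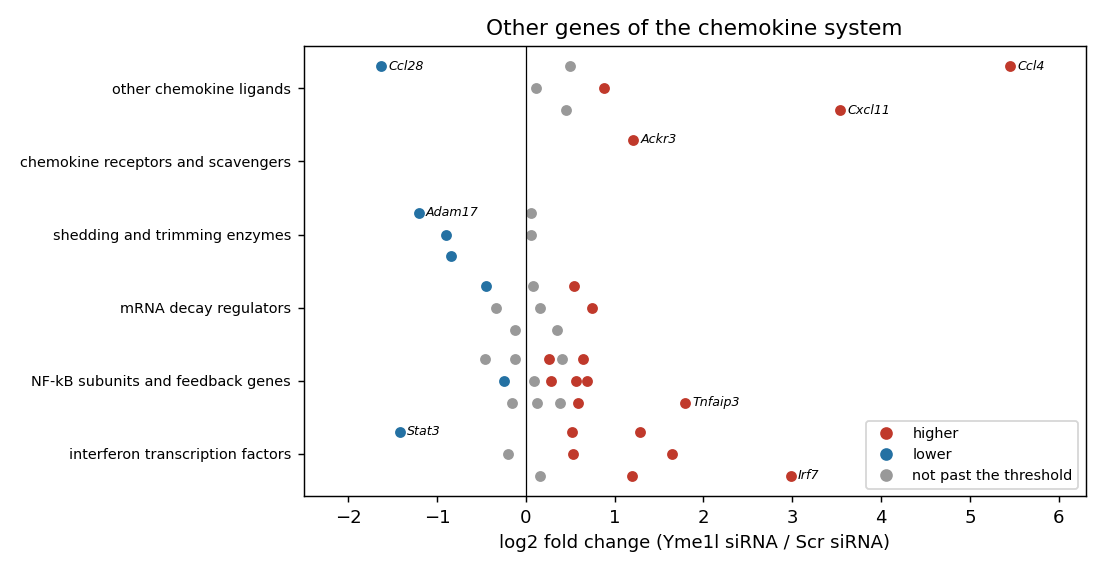
log2 fold change (Yme1l siRNA over Scr siRNA) of every tested gene in 6 lists of the chemokine system, 1 row per list, with red for genes called higher, blue for lower and grey for those not past an adjusted p of 0.05. Some of the genes that changed by more than 1 on the log2 scale are named. Ccl4, with 1 to 3 counts in each Scr siRNA library, is drawn at a fitted value that depends on the prior count.

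The genes most like Ccl5 and Cxcl10 across the 6 libraries were ranked by Pearson's r of CPM over 11544 loci. For Ccl5 they were Fkbp11 (0.998), Rps15a-ps7 (0.998) and Slc20a1 (0.997), and for Cxcl10 Fzd5 (0.999), Unkl (0.999) and Ccdc25 (0.998). All 6 were called higher, by between 0.47 and 1.25 on the log2 scale. With 2 groups of 3 libraries such values mainly reflect the difference between the groups, and they are given as a description.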

How the data were processed

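Polyadenylated RNA of 6 libraries was sequenced with a stranded kit. According to the study's methods and the submitters' processing notes, the authors aligned reads to GRCm38 with HISAT2 2.0.4, assembled transcripts with StringTie 1.3.3 and compared groups with Cuffdiff 2.2.1. The deposited counts are raw whole-number read counts per locus. The counting program, its strand setting and its treatment of reads with several matches are not given in the sources used here. A second deposited table, which holds the authors' own comparison, was not used. No per-sample column was left unmapped (0 columns).

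Counts of 14499 of 51499 loci passed filterByExpr (minimum count 10, minimum total 15) and were tested with edgeR 4.0.16 (TMM scaling, quasi-likelihood test, Scr siRNA against Yme1l siRNA, no covariate) in R 4.3.3, with Benjamini-Hochberg adjustment over all of them. The fit was tested on simulated data for this comparison: of 200 genes changed 2-fold among 14033, 188 were recovered with 14 false calls. The simulated counts had the same dispersion at every locus and far fewer changed genes than were called in the cultures. The recovery therefore does not carry over to genes that vary more between cultures. Library totals of 37260605 to 45205207 counts set the precision. Exact intervals and floors (3 counts) cover counting error only. Ratios between genes used a prior of 0.5 counts and two-sided exact permutation tests. Positions and lengths came from GENCODE M21, sequence similarity from BLAST 2.17.0 (at least 100 bases and 80% identity). Libraries of a group were not duplicates of each other (chi-square per degree of freedom 9.99 to 73.8).

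The replicate numbers of the groups were not taken as pairs in the main fit. Genes named are the 10 chemokines, Yme1l1, Ifnb1, the 3 genes with the smallest adjusted p of each list, and the 3 loci most like Ccl5 and Cxcl10, beside others singled out after their values were seen. Some items of the lists that this rule names are not reported here. The chemokines, lists and tests were chosen with earlier results of these data known. Alternatives were other scaling factors, DESeq2 1.42.0, limma-voom (limma 3.58.1), other filters, a replicate block, a threshold of 0.01, leaving out each library, and other transcript lengths.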

Additional observations from a re-analysis of the deposited data

How the results depend on the processing

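The number of chemokines called higher was 6 under each alternative that kept all libraries and the threshold of 0.05, and 4 without Scr siRNA replicate 1, without Scr siRNA replicate 3 and at a threshold of 0.01. Ccl5, Cxcl10, Ccl2 and Cxcl16 were called in all 14 alternatives run at 0.05, and at 0.01. At a threshold of 0.01 no chemokine was called lower (0 in place of 1), and Ccl7 (0.52), Cxcl1 (0.62) and Cxcl12 (−0.83) lost their calls, since their adjusted p lay between the thresholds. Leaving out 1 library at a time gave between 0 and 2 chemokines called lower and log2 fold changes of 0.31 to 0.66 for Ccl7, 0.32 to 0.78 for Cxcl1, −1.58 to −0.46 for Cxcl5, −1.05 to −0.65 for Cxcl12 and −0.29 to 0.092 for Cx3cl1, whose sign turned without Scr siRNA replicate 1 (0.063) and without Yme1l siRNA replicate 3 (0.092). The cause was not tested. With 3 cultures per group, calls of this size rest on single libraries.

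None of the 16 ratios turned its sign with a prior of 2 counts or without a library.

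With the longest transcript as the length, Cxcl12 stood at 307 and 173 RPKM and Ccl5 at 60.1 and 265 RPKM (Scr siRNA and Yme1l siRNA). With the protein-coding transcript as the length, a choice made after seeing the data, the values were 552 and 310 for Cxcl12, 182 and 383 for Ccl2, 75.4 and 333 for Ccl5, 29.5 and 45.4 for Cxcl1, 22.8 and 188 for Cxcl10, and 0.0531 and 0.0626 RPKM for Cxcl2. The shorter length raises each value by construction.

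A replicate block changed no call (for Cxcl12, −0.82 with an edgeR adjusted p of 0.000147). Same-numbered libraries deviated together with correlations of only 0.041, 0.12 and 0.19. For Scr siRNA replicates 2 and 3 the same-numbered library correlated best, whereas Scr siRNA replicate 1 correlated best with Yme1l siRNA replicate 2 (0.091). The numbers were not taken as pairs in the main fit, and these values do not settle whether the cultures were paired.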
